A study of Mus musculus with 6 samples.

Results

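The 34 genes described here encode scaffold proteins, kinases, phosphatases and their regulators at the postsynaptic density, the protein layer beneath the receptors of an excitatory synapse. They were chosen by name, with earlier results of these data known. Each was read from 1 probe set that bears its symbol alone in the platform annotation. Where there were several, that of the highest mean over the 6 arrays was taken. Of the 34, 29 had such a probe set and 27 reached a mean intensity of 50 in at least 1 treatment group, out of 10830 genes in all. Shank1 (at most 5.58 on any array) and Homer3 (at most 30.6) stayed below it. Shank2, Ppp1r9b, Begain, Lrrc7 and Magi2 had no probe set named in that annotation and were not analysed here.

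All 6 arrays carry ribosome-bound RNA from the cortex of mice of line DU9, whose Glt25d2 (now Colgalt2) bacterial artificial chromosome drives a tagged ribosomal protein in layer 5 pyramidal cells, so the signal depends on where that transgene is active. The strain had been moved from FVB onto C57BL/6 by 3 to 5 generations of backcross. The treated group drank 0.167 mg/ml fluoxetine, a serotonin reuptake inhibitor, with 1% saccharine for 15 to 18 days, and the control group drank 1% saccharine alone for as long. There were 3 arrays per group, numbered 1 to 3 in the titles as biological replicates of independent purifications, and neither the animals' age nor the number of mice behind an array is given in the sources used here. Each sample's description names the other treatment than its title, source and treatment fields do, so the arrays are called fluoxetine-titled and vehicle-titled. Were the descriptions right, each treatment difference would change its sign and keep its size. In bulk RNA of this kind, fewer cells and less RNA per cell cannot be told apart.

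At an excitatory synapse, Dlg proteins bind the tails of glutamate receptors, Dlgap proteins link Dlg to Shank, and Shank and Homer join that layer to actin and to metabotropic receptors. Calcium entering through NMDA receptors binds calmodulin, which activates CaM kinase II and the phosphatase calcineurin, with opposing effects on synaptic strength. In pyramidal cells, GTPase regulators and actin binders of the same layer shape the dendritic spine.

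The arrays were alike in overall level, with a median intensity between 23.0 and 23.4. The defining gene of the labelled cells, Colgalt2, had 986.1, 709.2 and 718.7 in the fluoxetine-titled arrays and 890.8, 828.1 and 918.1 in the vehicle-titled ones, and 11 of 12 layer 5 markers were measured. The number of arrays, 3 against 3, limits the precision of each treatment difference.

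The treatment comparison asks whether prolonged fluoxetine altered the translated messages of these cells. None of the 27 postsynaptic genes reached the threshold of an adjusted p under 0.05 (limma, Benjamini-Hochberg), and 0% of the 19073 probe sets tested did, with 121 at an unadjusted p under 0.05. Of the 27, 0 had an unadjusted p under 0.05. With the replicate number as a block the count was again 0, with 0 of the 27 and 767 of all probe sets below 0.05 before adjustment. The log2 difference, fluoxetine-titled minus vehicle-titled, lay between -0.20 for Iqsec2 and 0.24 for Dlg4, with a median of -0.024 beside -0.00681 over all genes. The 95% interval lay within 2-fold in either direction for 26 of the 27, the exception being Dlgap2. With the replicate block it did so for all 27.

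Arrays with the same number were then set side by side. In 3 of the 27 genes, each fluoxetine-titled array exceeded its vehicle-titled partner (Dlg3, Dlg4 and Dlgap1), where 10.9% of all genes did so. Camk2a, Camk2n1, Ppp3cb, Ppp3r1 and Synpo were lower in all 3, which is 5 of 27 (18.5%) beside 13.1%. Only for Ppp3cb among the 27 did the groups not overlap, where 3.61% of all genes had no overlap. These shares lay near those of all genes. In pair 3, the median log2 treatment difference of the measured markers was 0.64 for astrocytes, 0.51 for oligodendrocytes and 0.54 for their precursors. It was 0.67 for microglia and 0.40 for interneurons, against 0.00484 for the 27 postsynaptic genes. In the order astrocytes to interneurons, median log2 deviations from the 6-array mean were -0.59, -0.53, -0.52, -1.01 and -0.46 on vehicle-titled array 3. On fluoxetine-titled array 3 they were -0.019, -0.041, 0.11, -0.34 and -0.082. For layer 5, excitatory neuron and other cortical layer markers the median difference in pair 3 was -0.22, -0.11 and 0.18. The 7 measured vessel markers had medians of 0.36, 0.50 and 0.35 in pairs 1, 2 and 3, and 0 genes of these lists were called by treatment. The part of RNA from other cells in the pair values was not tested.

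**Figure D1:**
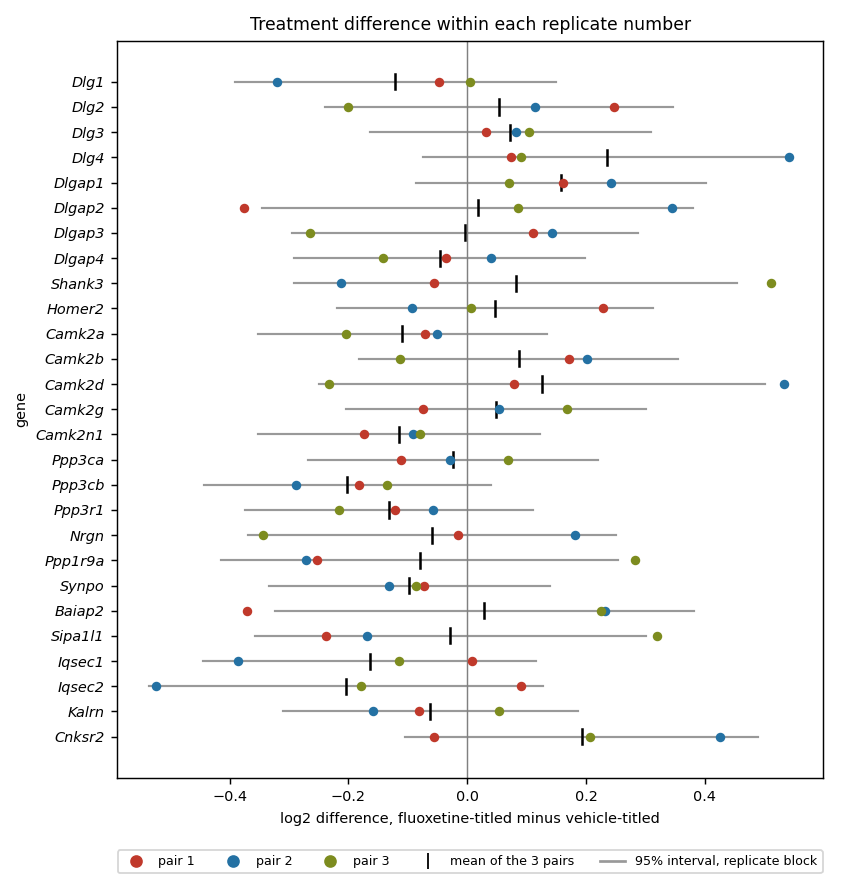
Log2 difference, fluoxetine-titled minus vehicle-titled, of 27 postsynaptic genes within each pair of arrays (coloured points), with the mean of the 3 pairs (black tick) and the 95% interval of the fit with the replicate block (grey line). Each interval contains 0, and the pair values lie between -0.52 (Iqsec2, pair 2) and 0.54 (Dlg4, pair 2).

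More of these genes passed the test by replicate number than by treatment. The titles do not say what a number stands for. The 2 arrays numbered 1 were compared with the other 4, with treatment as a covariate. Of the 27 genes, 7 (25.9%) were lower on the arrays numbered 1 at an adjusted p under 0.05, where 6.86% of all genes were. They were Dlgap2, Dlgap3, Camk2n1, Dlgap4, Iqsec1, Cnksr2 and Dlg3. Ppp3r1 alone was higher at that threshold, 1 of 27 (3.70%) beside 5.92% of all genes. The median log2 difference, number 1 minus numbers 2 and 3, was -0.27 over the 27 and 0.037 over all genes. A negative one was found in 21 of the 27 (77.8%), beside 45.5% of all genes. As the genes were chosen with earlier results of these data known, these shares describe them and do not test them as a set. Per RefSeq's table of GRCm38.p6, the 8 genes lie on chromosomes 8 (Dlgap2), 4 (Dlgap3 and Camk2n1), 2 (Dlgap4), 6 (Iqsec1), X (Cnksr2 and Dlg3) and 11 (Ppp3r1).

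Both arrays numbered 1 lay below the other 4 for 11 of the 27 genes, where 19.9% of all genes did, and above them for 1, where 24.4% did. This way of dividing the arrays was taken up because it was known to be the main axis of variation among them, so its p-values describe these 6 arrays and say nothing of the drug. Leaving out fluoxetine-titled array 1 or vehicle-titled array 1 left 1 called gene, Dlgap2, in place of 7 lower, and leaving out fluoxetine-titled array 3 left 4.

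**Figure D2:**
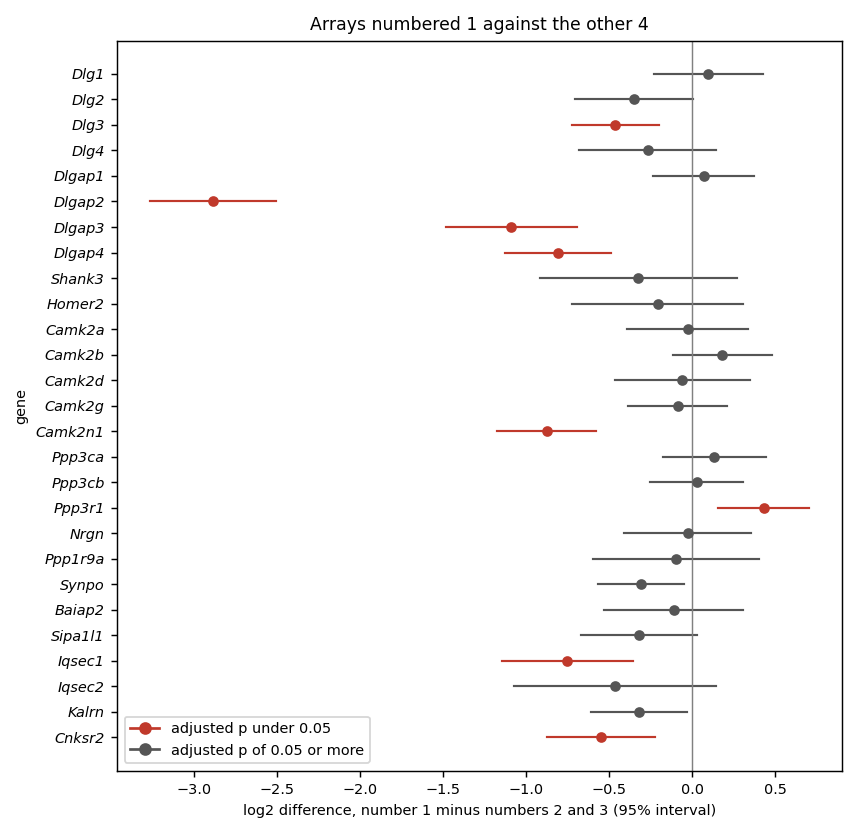
Log2 difference of each of 27 postsynaptic genes between the 2 arrays numbered 1 and the other 4 (points) with its 95% interval (lines). The 8 genes past an adjusted p of 0.05 are red, 7 of them below 0 and Ppp3r1 above.

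**Figure D3:**
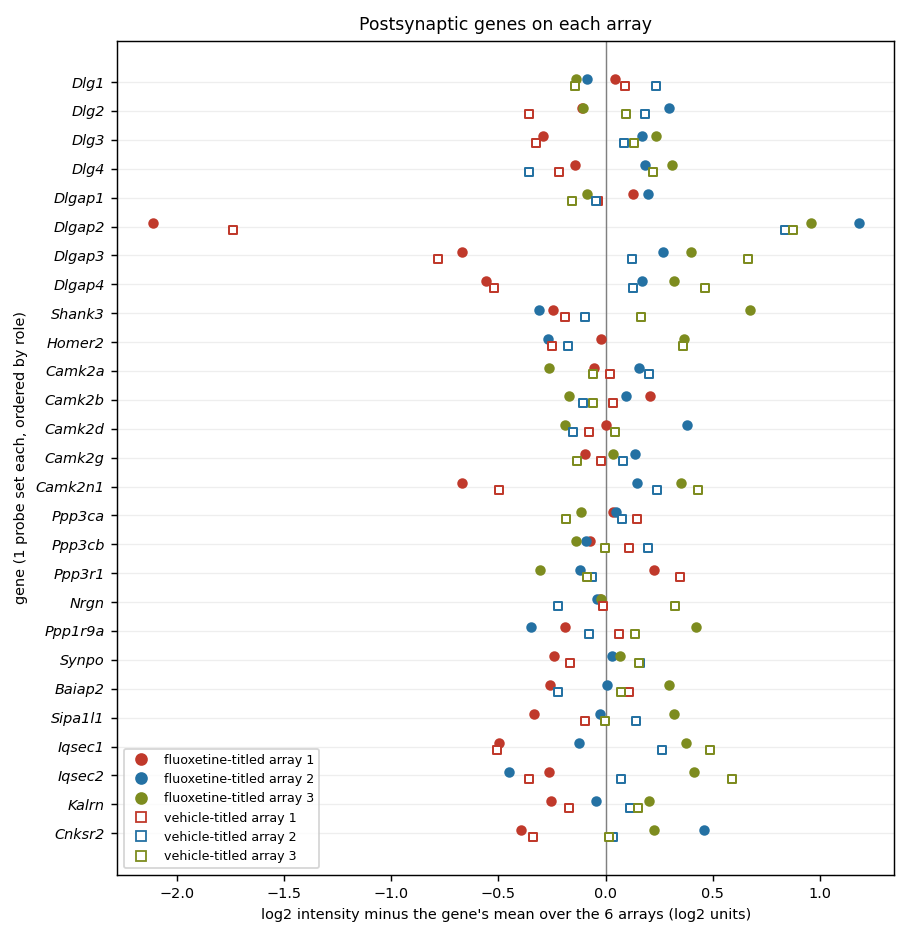
Log2 intensity of 27 postsynaptic genes on each array, as the deviation from that gene's mean over the 6 arrays. Red symbols are the arrays numbered 1, filled circles are fluoxetine-titled and open squares vehicle-titled; for Dlgap2 both red symbols lie far below the other 4, at intensities of 104.3 and 135.3.

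The Dlgap family, whose proteins bridge Dlg and Shank, held the 2 largest differences among the 27. Dlgap2 had an intensity of 104.3 and 135.3 on the arrays numbered 1, against 1024 and 806.6 on those numbered 2 and 876.3 and 825.8 on those numbered 3. The arrays numbered 1 stood well apart from the rest in both treatments, at 119.8 ± 21.9 (SD, n = 2) against 883.1 ± 98.2 (SD, n = 4), 7.40-fold lower. The log2 difference was -2.89 ± 0.16 (SE, limma adjusted p = 7.93e-04). It ranked number 2 from the lowest among 10830 genes, of which 8 (0.0739%) were at least 4-fold lower. Only 1 probe set stands for Dlgap2 in the annotation.

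Dlgap3 had 418.1 and 387.2 on the arrays numbered 1, against 800.0 and 724.9 on those numbered 2 and 878.4 and 1055 on those numbered 3. Both arrays numbered 1 were the lowest, and the log2 difference was -1.09 ± 0.17 (SE, limma adjusted p = 0.00738). Dlgap4 gave 1461 and 1497 on the arrays numbered 1, against 2415 and 2349.5 on those numbered 2 and 2685 and 2964 on those numbered 3, again with both arrays numbered 1 lowest and a log2 difference of -0.81 ± 0.14 (SE, limma adjusted p = 0.0103). For Dlgap3 and Dlgap4 the arrays numbered 3 also lay above those numbered 2. Dlgap1 had 4501 and 4023 on the arrays numbered 1, against 4725 and 3994 on those numbered 2 and 3871 and 3689 on those numbered 3, with overlap and a difference of 0.071 ± 0.13 (SE, limma adjusted p = 0.745).

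Between the treatments the family did not separate. Dlgap2 had a log2 difference of 0.018 ± 1.03 (SE), with an interval from -2.40 to 2.43 that narrowed to -0.34 to 0.38 with the replicate block. The sign varied, with -0.38, 0.34 and 0.086 in pairs 1, 2 and 3. The treatment difference was -0.00380 ± 0.42 (SE) for Dlgap3, -0.046 ± 0.32 (SE) for Dlgap4 and 0.16 ± 0.13 (SE) for Dlgap1. With the replicate block these SEs were 0.12, 0.10 and 0.10, in that order.

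**Figure D4:**
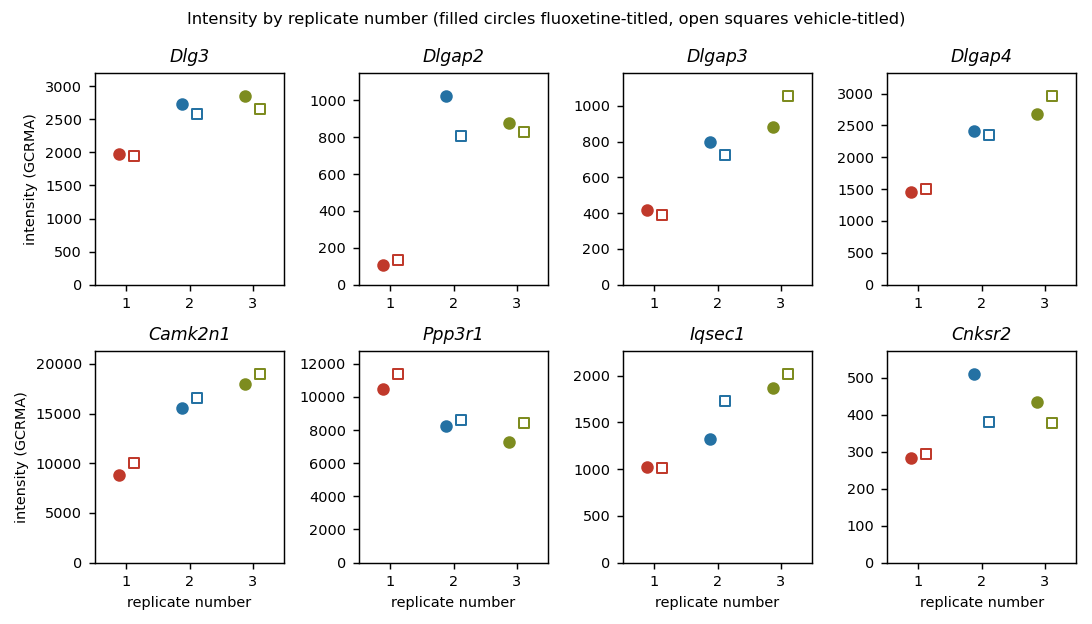
Intensity of the 8 genes past an adjusted p of 0.05, by replicate number, with fluoxetine-titled arrays as filled circles and vehicle-titled arrays as open squares on axes that start at 0. Each treatment's array numbered 1 is the lowest of its 3 in 7 panels and the highest in that of Ppp3r1.

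Of the 8 genes that differed by number, 3 have a single start in the RefSeq promoter table, and the 250 bases before it are shown because Dlgap3 and Dlgap4 moved together while Ppp3r1 went the other way. Sequences are RefSeq's on build GRCm38.p6, 5′ to 3′ on the gene's strand, with GC boxes (GGGCGG on either strand, matches that share bases included) in capitals.
Dlgap3, chr4:127172630-127172879, + strand: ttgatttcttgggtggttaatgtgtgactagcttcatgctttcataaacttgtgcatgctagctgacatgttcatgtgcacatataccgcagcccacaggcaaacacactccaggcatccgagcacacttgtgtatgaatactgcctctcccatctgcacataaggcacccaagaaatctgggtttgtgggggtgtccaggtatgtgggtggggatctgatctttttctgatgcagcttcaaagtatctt
Dlgap4, chr2:156720715-156720964, + strand: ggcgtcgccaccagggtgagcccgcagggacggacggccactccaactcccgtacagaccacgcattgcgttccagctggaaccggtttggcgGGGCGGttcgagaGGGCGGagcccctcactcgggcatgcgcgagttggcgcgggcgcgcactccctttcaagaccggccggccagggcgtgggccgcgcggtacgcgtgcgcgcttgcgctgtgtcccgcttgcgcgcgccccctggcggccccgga
Ppp3r1, chr11:17159048-17159297, + strand: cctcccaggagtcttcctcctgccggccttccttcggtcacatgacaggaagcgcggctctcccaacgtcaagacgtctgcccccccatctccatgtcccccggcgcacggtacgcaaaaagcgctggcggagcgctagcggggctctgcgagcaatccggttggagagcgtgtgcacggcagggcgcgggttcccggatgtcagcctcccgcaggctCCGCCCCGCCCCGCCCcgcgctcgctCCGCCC

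The window of Dlgap3 held 0 GC boxes, that of Dlgap4 2 and that of Ppp3r1 4, and 32.7% of 32851 windows of this length held at least 1. No window of the 3 held a cAMP response element (TGACGTCA, in 1.5% of windows) or a TATA box (TATAAA on either strand, in 12.4%). These are matches of letters and no measurement of binding.

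Among the Dlg scaffolds, which anchor AMPA and NMDA receptors, Dlg3 had 1979 and 1937 on the arrays numbered 1, against 2724 and 2573 on those numbered 2 and 2852 and 2655 on those numbered 3. Both arrays numbered 1 lay below the rest, with a log2 difference of -0.46 ± 0.11 (SE, limma adjusted p = 0.0336). Dlg2 was placed likewise, though by a narrow margin, at 1215 and 1024 on the arrays numbered 1, against 1609 and 1487 on those numbered 2 and 1218 and 1401 on those numbered 3, but its difference of -0.35 ± 0.15 (SE, limma adjusted p = 0.161) did not pass. The treatment difference was 0.072 ± 0.20 (SE) for Dlg3 and 0.053 ± 0.20 (SE) for Dlg2. Leaving out fluoxetine-titled array 2 or 3 or vehicle-titled array 2 ended the call of Dlg3 by number (limma adjusted p = 0.0729, 0.0919 and 0.0641). So did leaving out both arrays numbered 2 or both numbered 3 (limma adjusted p = 0.0778 and 0.0554). Without vehicle-titled array 3 it held (limma adjusted p = 0.0400).

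Dlg4, which encodes the major Dlg scaffold of mature excitatory synapses, had 203.8, 255.7 and 279.1 in the fluoxetine-titled arrays and 193.7, 175.6 and 262.1 in the vehicle-titled ones. The groups overlapped, with vehicle-titled array 2 the lowest of the 6. Its treatment difference, 0.24 ± 0.20 (SE), was the highest of the 27 and came mainly from pair 2 (0.073, 0.54 and 0.091 in pairs 1, 2 and 3). By number it was -0.27 ± 0.18 (SE, limma adjusted p = 0.336). Dlg1, whose protein also serves in receptor trafficking, had 6365, 5831 and 5623 in the fluoxetine-titled arrays and 6579, 7278 and 5604 in the vehicle-titled ones, a treatment difference of -0.12 ± 0.15 (SE) and a number difference of 0.10 ± 0.14 (SE, limma adjusted p = 0.674).

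Shank3, the scaffold at the base of the layer, had 239.2, 228.4 and 452.3 in the fluoxetine-titled arrays and 248.6, 264.7 and 317.1 in the vehicle-titled ones. Fluoxetine-titled array 3 stood highest and the groups overlapped, with a treatment difference of 0.081 ± 0.27 (SE) and a number difference of -0.32 ± 0.26 (SE, limma adjusted p = 0.417). Homer2, which tethers group I metabotropic glutamate receptors to Shank, had 684.7, 576.9 and 896.5 in the fluoxetine-titled arrays and 584.4, 615.3 and 892.8 in the vehicle-titled ones. The arrays numbered 3 were the highest in both groups, and the differences were 0.047 ± 0.23 (SE) by treatment and -0.21 ± 0.22 (SE, limma adjusted p = 0.557) by number. Homer1, an activity-induced relative outside the 27, had 4342, 3677 and 4339 in the fluoxetine-titled arrays and 5534, 4003 and 3959 in the vehicle-titled ones and a number difference of 0.30 ± 0.14 (SE, limma adjusted p = 0.184).

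The 4 genes of CaM kinase II, the most abundant kinase of the layer, were not called by number. The gene of its inhibitor was, through its brightest probe set and not through its other kept one. Camk2n1, which encodes that inhibitor protein, had 8845 and 9975 on the arrays numbered 1, against 15583 and 16610.3 on those numbered 2 and 17997 and 19015 on those numbered 3. Both arrays numbered 1 were far below the other 4, with a log2 difference of -0.88 ± 0.13 (SE, limma adjusted p = 0.00603). The kinase genes overlapped between numbers, with differences of -0.026 ± 0.16 (SE, limma adjusted p = 0.927) for Camk2a, 0.18 ± 0.13 (SE, limma adjusted p = 0.367) for Camk2b, -0.058 ± 0.17 (SE, limma adjusted p = 0.848) for Camk2d and -0.087 ± 0.13 (SE, limma adjusted p = 0.680) for Camk2g. The difference between Camk2n1 and the kinase genes was not itself tested.

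By treatment, Camk2a had 1658, 1913 and 1433 in the fluoxetine-titled arrays and 1742, 1981 and 1652 in the vehicle-titled ones. The groups overlapped, and each fluoxetine-titled value was slightly below its partner, with log2 differences of -0.072, -0.050 and -0.21 in pairs 1, 2 and 3. Camk2b had 5783, 5347 and 4454 in the fluoxetine-titled arrays and 5136, 4652 and 4817 in the vehicle-titled ones, a difference of 0.086 ± 0.14 (SE). Camk2d, found in many tissues, had 261.3, 340.0 and 228.9 in the fluoxetine-titled arrays and 247.5, 235.0 and 269.0 in the vehicle-titled ones, with fluoxetine-titled array 2 the highest. For Camk2g the intensities were 4240.2, 4974 and 4633 in the fluoxetine-titled arrays and 4464, 4796 and 4124 in the vehicle-titled ones. The differences of Camk2d and Camk2g were 0.13 ± 0.17 (SE) and 0.049 ± 0.13 (SE). Camk2n1 had -0.11 ± 0.33 (SE), negative in all 3 pairs (-0.17, -0.092 and -0.079 in pairs 1, 2 and 3). With the replicate block its SE was 0.10.

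Calcineurin, the calcium-dependent phosphatase, gave the 1 gene called higher on the arrays numbered 1 through its brightest probe set. Its regulatory subunit gene Ppp3r1 had 10478 and 11397 on the arrays numbered 1, against 8237 and 8577 on those numbered 2 and 7250.0 and 8417 on those numbered 3. Both arrays numbered 1 were above the rest, with a log2 difference of 0.43 ± 0.12 (SE, limma adjusted p = 0.0483). Quantile normalization ended that call (limma adjusted p = 0.0743) and so did leaving out each single array in turn. Through their brightest probe sets the catalytic subunit genes overlapped by number. Their differences were 0.13 ± 0.13 (SE, limma adjusted p = 0.519) for Ppp3ca and 0.027 ± 0.12 (SE, limma adjusted p = 0.900) for Ppp3cb. A dimmer probe set of Ppp3cb passed as higher, at 0.72 ± 0.20 (SE, limma adjusted p = 0.0470).

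Ppp3cb was the 1 gene of the 27 whose treatment groups did not overlap. It had 19752, 19496 and 18895 in the fluoxetine-titled arrays and 22417, 23798 and 20754 in the vehicle-titled ones, means of 19381 ± 439.8 and 22323 ± 1524 (SD, n = 3 each). The log2 difference of -0.20 ± 0.12 (SE) had an unadjusted p of 0.142 in limma's fit over all probe sets and an adjusted p of 1. Its other 3 kept probe sets had -0.14, 0.017 and 0.10, so the probe sets did not share a sign. Ppp3ca had 17853, 18017 and 16072 in the fluoxetine-titled arrays and 19286, 18376 and 15328 in the vehicle-titled ones, with overlap and -0.024 ± 0.14 (SE). Ppp3r1 had a treatment difference of -0.13 ± 0.19 (SE), negative in each pair (-0.12, -0.058 and -0.22 in pairs 1, 2 and 3).

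Neurogranin, Nrgn, holds calmodulin at low calcium. It had 5426, 5366 and 5445 in the fluoxetine-titled arrays and 5483, 4732 and 6914 in the vehicle-titled ones, a treatment difference of -0.059 ± 0.16 (SE) and a number difference of -0.028 ± 0.17 (SE, limma adjusted p = 0.927). The fluoxetine-titled values had an SD of 41.2 (n = 3), against 1108 (n = 3) in the vehicle-titled arrays.

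Of the actin and spine regulators, none passed by number or by treatment through its brightest probe set. Synaptopodin, Synpo, a protein of the spine apparatus, had 709.0 and 746.1 on the arrays numbered 1, against 856.1 and 937.9 on those numbered 2 and 877.9 and 932.5 on those numbered 3. Both arrays numbered 1 were lowest, at a log2 difference of -0.31 ± 0.11 (SE, limma adjusted p = 0.102), and the treatment difference was -0.10 ± 0.16 (SE) with the same sign in each pair (-0.074, -0.13 and -0.087 in pairs 1, 2 and 3). Neurabin, Ppp1r9a, which brings protein phosphatase 1 to actin, had 1363, 1221 and 2080.1 in the fluoxetine-titled arrays and 1623, 1474 and 1710.5 in the vehicle-titled ones. Fluoxetine-titled array 3 was its highest and fluoxetine-titled array 2 its lowest, and the differences were -0.080 ± 0.21 (SE) by treatment and -0.10 ± 0.21 (SE, limma adjusted p = 0.789) by number. Baiap2, a membrane-bending partner of Rac and Cdc42, had 967.2, 1163 and 1421 in the fluoxetine-titled arrays and 1251, 990.8 and 1215 in the vehicle-titled ones, with 0.029 ± 0.18 (SE) and -0.11 ± 0.18 (SE, limma adjusted p = 0.709).

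Through their brightest probe sets, 1 of the 4 GTPase regulators passed by number. Iqsec1, an activator of the small GTPase Arf6, had 1021 and 1015 on the arrays numbered 1, against 1323 and 1729 on those numbered 2 and 1866 and 2020.3 on those numbered 3. The arrays numbered 1 were the lowest, with a difference of -0.75 ± 0.17 (SE, limma adjusted p = 0.0269). Its relative Iqsec2 had 669.3 and 628.8 on the arrays numbered 1, against 588.2 and 845.6 on those numbered 2 and 1069.6 and 1210.4 on those numbered 3, where fluoxetine-titled array 2 was the lowest of all, and a difference of -0.47 ± 0.26 (SE, limma adjusted p = 0.262). Kalirin, Kalrn, an activator of Rac in spines, had 16329.8 and 17276 on the arrays numbered 1, against 18871 and 21056 on those numbered 2 and 22417 and 21614 on those numbered 3, a difference of -0.32 ± 0.12 (SE, limma adjusted p = 0.123). Sipa1l1, a GTPase-activating protein for Rap, had 3333 and 3928 on the arrays numbered 1, against 4117 and 4627 on those numbered 2 and 5234 and 4192 on those numbered 3 and a difference of -0.32 ± 0.15 (SE, limma adjusted p = 0.184). By treatment the 4 had -0.16 ± 0.31 (SE), -0.20 ± 0.30 (SE), -0.062 ± 0.17 (SE) and -0.028 ± 0.19 (SE), in that order.

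Cnksr2, a scaffold of Ras signalling that binds Dlg proteins, had 282.7 and 293.8 on the arrays numbered 1, against 510.3 and 379.9 on those numbered 2 and 433.8 and 375.9 on those numbered 3. The arrays numbered 1 were below the other 4, with a log2 difference of -0.55 ± 0.14 (SE, limma adjusted p = 0.0387), and fluoxetine-titled array 2 was the highest. The treatment difference was 0.19 ± 0.24 (SE). Without fluoxetine-titled array 1 the number difference was -0.36, and without vehicle-titled array 1 it was -0.74. Leaving out fluoxetine-titled array 2 or 3 or vehicle-titled array 2 ended the call by number (limma adjusted p = 0.0823, 0.0826 and 0.0653). So did leaving out both arrays numbered 2 (limma adjusted p = 0.0875). It held without vehicle-titled array 3 or without both arrays numbered 3 (limma adjusted p = 0.0366 and 0.0362).

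Different probe sets of 1 gene often differed in whether they passed by number. The difference between probe sets was not itself tested. The 27 genes had 60 kept probe sets, of which 12 were lower on the arrays numbered 1 at an adjusted p under 0.05, where 9.03% of all kept probe sets were, and 2 higher, where 6.22% were. In 7 of the 19 genes with several kept probe sets, some passed and others did not. Sipa1l1, which did not pass through its brightest probe set, had a second (1434222_at) at 295.2 and 349.6 on the arrays numbered 1, against 710.4 and 754.5 on those numbered 2 and 841.3 and 863.5 on those numbered 3. There the arrays numbered 1 were clearly lowest, with a difference of -1.30 ± 0.13 (SE, limma adjusted p = 0.00175).

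Kalrn had 5 kept probe sets, and 2 of them passed. Probe set 1448023_at gave 418.1 and 483.7 on the arrays numbered 1, against 770.3 and 682.3 on those numbered 2 and 1076 and 1226 on those numbered 3, a difference of -1.02 ± 0.25 (SE, limma adjusted p = 0.0324), and 1457690_at a difference of -0.80 ± 0.22 (SE, limma adjusted p = 0.0463). The other 3 ranged from -0.36 to 0.016. Baiap2 passed through 1425656_a_at, at -0.64 ± 0.15 (SE, limma adjusted p = 0.0283), and not through its other 3. For Dlgap4 both probe sets were lower, the second at -0.50 ± 0.12 (SE, limma adjusted p = 0.0306).

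In the opposite sense, the second probe set of Camk2n1 (1440455_at) had 2464 and 2812 on the arrays numbered 1, against 3105 and 3667 on those numbered 2 and 2560.2 and 2535 on those numbered 3 and a difference of -0.16 ± 0.17 (SE, limma adjusted p = 0.577). That of Iqsec1 (1427145_at) had 353.2 and 353.2 on the arrays numbered 1, against 315.3 and 359.1 on those numbered 2 and 379.6 and 357.6 on those numbered 3, close to level, at 0.00468 ± 0.13 (SE, limma adjusted p = 0.985). For Cnksr2 the second gave -0.20 ± 0.22 (SE, limma adjusted p = 0.567). The fourth probe set of Ppp3cb (1433835_at) was higher on the arrays numbered 1, at 0.72 ± 0.20 (SE, limma adjusted p = 0.0470), while the brightest was level. The sources used here do not place the probe sets along the transcripts, and whether they read different transcript forms was not tested.

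**Figure D5:**
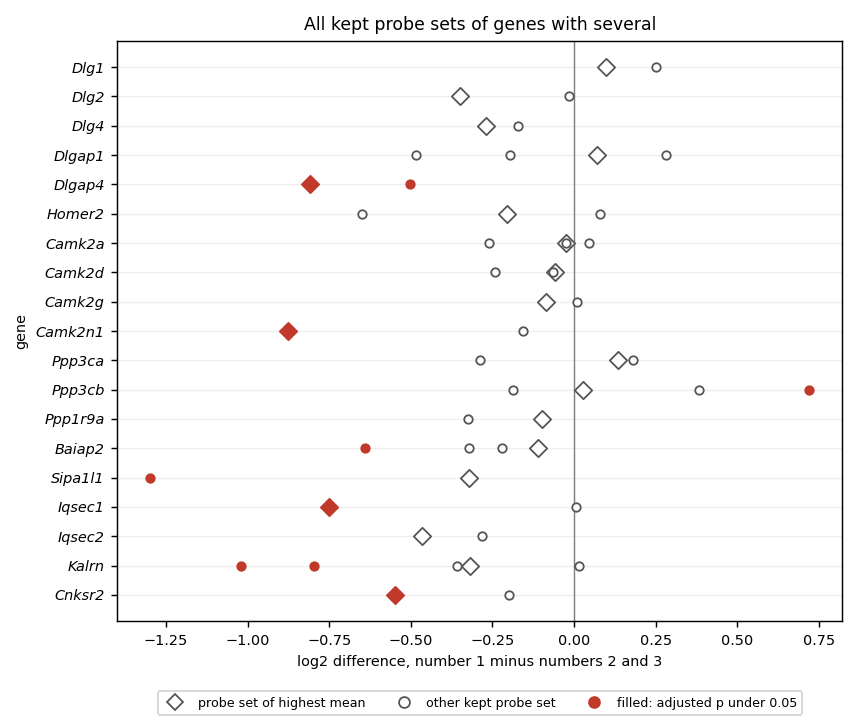
Log2 difference between the 2 arrays numbered 1 and the other 4 for each kept probe set of the 19 postsynaptic genes with several. Diamonds are the brightest probe set of a gene and filled red symbols have an adjusted p under 0.05; in Sipa1l1, Kalrn, Baiap2 and Ppp3cb only dimmer probe sets are red.

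A wider list of 93 other postsynaptic genes had 81 measured, with 0 past an adjusted p of 0.05 by treatment and 0 at an unadjusted p under 0.05 in limma. Their median treatment difference was 0.011. By number 8 (9.88%) were lower on the arrays numbered 1, beside 6.86% of all genes. A single gene (1.23%) was higher, beside 5.92%. The median was -0.058, against 0.037 over all genes. All 9 called are named. The 5 lowest were the kinase gene Camk1d (269.7 and 300.1 on the arrays numbered 1, against 880.4 and 946.2 on those numbered 2 and 947.8 and 754.6 on those numbered 3), the scaffold gene Mpp2 (229.4 and 207.1 on the arrays numbered 1, against 489.1 and 565.5 on those numbered 2 and 449.5 and 554.5 on those numbered 3), the actin crosslinker gene Actn4, the kinase gene Mink1 and the activity-induced gene Arc. Their log2 differences were -1.63, -1.23, -1.02, -0.98 and -0.90. Both Camk1d and Mpp2 had their 2 lowest values on the arrays numbered 1.

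Camk2n2, the second inhibitor gene of CaM kinase II, had 3178 and 3156 on the arrays numbered 1, against 4615 and 5306 on those numbered 2 and 5455 and 5908 on those numbered 3, a difference of -0.74 ± 0.13 (SE, limma adjusted p = 0.0117) in the same direction as Camk2n1. Apba1 and Grip1, adaptor genes with PDZ domains, had -0.55 and -0.46. Lin7b, which encodes a partner of the scaffold Cask, was the 1 called gene that was higher, at 7940.4 and 7419.8 on the arrays numbered 1, against 4409.8 and 4022 on those numbered 2 and 4973 and 5342 on those numbered 3 and 0.72 ± 0.15 (SE, limma adjusted p = 0.0202).

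Other features of the arrays numbered 1 were compared in the same way. The 4 measured of 5 excitatory neuron markers had a median log2 difference of -0.40. They summed to 5341 to 5469.5 on the arrays numbered 1, against 5776 to 7884 on the other 4. Of these markers, 3 had a negative difference, while 1 had both arrays numbered 1 above the other 4. Slc17a7, the vesicular glutamate transporter gene, was lower, by a log2 difference of -1.10 ± 0.19 (SE, limma adjusted p = 0.0113), as was Tbr1, at -0.55 ± 0.15 (SE, limma adjusted p = 0.0461). The 11 layer 5 markers had a median of 0.14 and summed to 55089 to 59022 on the arrays numbered 1, against 43268 to 54364 on the other 4. Of the 11, 2 had a negative difference, 1 was called higher (Rbp4, at 0.88 ± 0.12 (SE, limma adjusted p = 0.00524)) and 0 were called lower. Fezf2, a transcription factor gene of these cells, had 2353 and 1961 on the arrays numbered 1, against 2600.2 and 2769.8 on those numbered 2 and 2697 and 3644 on those numbered 3, with both arrays numbered 1 lowest and a difference of -0.43 ± 0.17 (SE, limma adjusted p = 0.126). Pcp4 made up 32186 and 37135 of the sums on the arrays numbered 1.

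Markers of other cells were measured as well. The difference by number was negative for 4 of 16 astrocyte, 8 of 12 oligodendrocyte, 2 of 4 precursor and 1 of 7 microglia markers. Called lower were 1 of the first list (Slc1a2, -0.88), 1 of the second (Sox10, -0.90), 1 of the third (Cspg4, -0.96) and 0 of the fourth, and none of the 4 lists had a gene called higher. For glia, 16 of 16 astrocyte markers summed to 64528 to 66069 on the arrays numbered 1, against 43647 to 71716 on the other 4, with a median log2 difference of 0.15. The 12 of 13 oligodendrocyte markers summed to 29692 to 29878 on the arrays numbered 1, against 21576 to 39851 on the other 4, with a median log2 difference of -0.079. The 4 of 6 oligodendrocyte precursor markers summed to 1188 to 1250.5 on the arrays numbered 1, against 806.4 to 1221 on the other 4, with a median log2 difference of 0.12. The 7 of 11 microglia markers summed to 2792 to 3259 on the arrays numbered 1, against 1248 to 2926 on the other 4, with a median log2 difference of 0.50, and its members Itgam, Tyrobp, P2ry12 and Tmem119 stayed under the filter at 50. In the other lists, 10 of 12 interneuron markers summed to 37816 to 38118 on the arrays numbered 1, against 30618 to 38352 on the other 4, with a median log2 difference of 0.23. The 7 of 13 vessel markers summed to 1983 to 2514 on the arrays numbered 1, against 1583 to 2219 on the other 4, with a median log2 difference of 0.32, and Pecam1, Flt1, Tek, Kdr, Cdh5 and Tagln stayed under the filter. The 8 of 10 markers of other cortical layers summed to 19509 to 19679.6 on the arrays numbered 1, against 20110.3 to 23547 on the other 4, with a median log2 difference of -0.018.

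Among the array's control probe sets, the ratio of the 3′ to the middle beta-actin probe set was 4.50 and 4.85 on the arrays numbered 1, against 3.52 to 3.88 on the other 4. The 3′ to 5′ ratio overlapped, at 6.50 to 8.26 against 7.51 to 8.46 for beta-actin and 1.85 to 2.38 against 2.34 to 3.09 for Gapdh. For Gapdh the 3′ to middle ratio was 1.61 and 1.69 on the arrays numbered 1, against 1.67 to 1.75 on the other 4. The control for B1 repeats had 5476 and 6123 on the arrays numbered 1, against 9469 and 10257 on those numbered 2 and 19522 and 11230.4 on those numbered 3. That for B2 repeats overlapped, at 29486 and 31612 on the arrays numbered 1, against 29617 and 30835 on those numbered 2 and 30875 and 29494 on those numbered 3. The part of cell types, RNA quality or B1 repeats in the differences of the postsynaptic genes was not tested.

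Whether the treatment difference in pair 1 departed from that in pairs 2 and 3 was tested as an interaction, with 1 array of number 1 per treatment. Of all probe sets, 635 had an unadjusted p under 0.05 and 0% passed the adjusted threshold in limma, and 0 of the 27 genes had an unadjusted p under 0.05. The interaction estimates lay between -0.60 for Baiap2 and 0.44 for Iqsec2 on the log2 scale. Dlgap2, at -0.59 ± 0.26 (SE), had the smallest unadjusted p of the 27 in that limma fit, 0.0647.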

How the data were processed

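Per the labels' protocols, 15 ng of RNA per sample went through 2 cycles of amplification before hybridization. The intensities the authors deposited, 1 per array for each probe set, are linear GCRMA values (background-corrected and normalized between arrays), per the submitters' processing notes. The GCRMA version is not given in the sources used here. Of 45101 probe sets, 64 controls were set aside and 19073 kept where at least 1 group mean reached 50, a reading of the submitters' advice. The platform annotation gave 1 symbol for 34945 probe sets, several for 932 and none for 9160; RefSeq's table of GRCm38.p6 changed 0 symbols. Log2 intensities were fitted over all kept probe sets with limma 3.58.1 (R 4.3.3), lmFit and eBayes, two-sided, with Benjamini-Hochberg adjustment. The models were treatment alone, number 1 against 2 and 3 with treatment as a covariate, and their interaction. The code was tested on simulated data.

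The members, gene lists and the comparison by number were chosen with earlier results of these data known. All members are named; of the wider list, the 5 highest and 5 lowest called by number, and any called by treatment. Homer1 falls outside that rule and was named after its values were seen. Alternatives were the low-value filter, normalization, centring, pseudocount, prior variance, covariate, choice of probe set, replicate block and leaving out arrays. Deviations from the group mean correlated between the 2 arrays of a number (r = 0.74, 0.60 and 0.50, and -0.59 to 0.26 between arrays of unequal number). On that ground the numbers, taken from the titles, were used to pair the samples. Deviations from a group's own mean cancel out within it, which lowers the correlations between unequal numbers. The pairing is therefore inferred and not established. No 2 arrays looked like 1 sample deposited 2 times, as their log2 values differed with an SD of at least 0.23.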

Additional observations from a re-analysis of the deposited data

Results flagged for a closer look

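Among the 4 arrays numbered 2 and 3, Dlg1 had 1 array far from the rest. Fluoxetine-titled arrays 2 and 3 had 5831 and 5623, and vehicle-titled arrays 2 and 3 had 7278 and 5604. The gap below vehicle-titled array 2 was 0.85 of the whole range on the log2 scale, above Dixon's critical value at the 95% level for 4 samples. Chance passes that value in about 1 of 20 such groups, and 27 genes were examined.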

How the results depend on the processing

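Counts by treatment, 0 probe sets and 0 of the 27 genes, and by interaction, 0, were the same under each alternative run; the interaction was not run with an array removed, since too little spread is left. With the replicate block, the treatment counts stayed at 0 and no other call changed, and the median log2 difference of the 27 was -0.024. The 2910 probe sets called by number became 1698 with no filter on low values, and between 279 (without fluoxetine-titled array 1) and 3882 (without both arrays numbered 3) with arrays removed. Genes lower by number, 7 of 27, came to 4 of 19 through second probe sets and to between 1 and 7 with arrays removed. Ppp3r1, the 1 higher, was lost with no filter, under quantile normalization and in all cases with arrays removed (each 0), and has no second kept probe set, where the count was 0. The 4 genes lower through second probe sets were Dlgap4, Sipa1l1, Kalrn and Baiap2, and of these only Dlgap4 was among the 7. The second probe sets of Camk2n1, Iqsec1 and Cnksr2 did not pass. Iqsec1 and Cnksr2 lost their calls with no filter (limma adjusted p = 0.0957 and 0.0863) and with probe sets averaged (limma adjusted p = 0.115 and 0.110). Of the wider list, 8 lower became 3 with no filter and 2 to 11 with arrays removed; the 1 higher became 0 with no filter, 2 with arrays centred, with a pseudocount of 16 or without the treatment covariate, 3 with an intensity trend, and 0 to 2 with arrays removed. The median treatment difference of the 27 was -0.064 with probe sets averaged, -0.085 through second probe sets and -0.11 to 0.11 with arrays removed; by number it was -0.34 to -0.15 with arrays removed. By treatment, signs turned with mean of all kept probe sets of a gene for Dlgap1 -0.064, Homer2 -0.18, Camk2g -0.17 and Baiap2 -0.076. By treatment, signs turned with the second kept probe set of a gene for Dlgap1 -0.19, Homer2 -0.23, Camk2a 0.00445, Camk2g -0.39, Baiap2 -0.13 and Iqsec2 0.025. By treatment, signs turned with quantile normalization for Dlgap3 0.00596 and Ppp3ca 0.019. By treatment, signs turned in at least 1 case with arrays removed for Dlg2 -0.11 to 0.18, Dlg3 -0.072 to 0.24, Dlgap2 -0.85 to 1.08, Dlgap3 -0.40 to 0.33, Dlgap4 -0.32 to 0.22, Shank3 -0.24 to 0.26, Homer2 -0.12 to 0.24, Camk2d -0.077 to 0.31, Camk2g -0.011 to 0.11, Camk2n1 -0.39 to 0.19, Ppp3ca -0.12 to 0.043, Ppp3r1 -0.28 to 0.00952, Nrgn -0.19 to 0.088, Ppp1r9a -0.31 to 0.074, Baiap2 -0.11 to 0.23, Sipa1l1 -0.20 to 0.13, Iqsec1 -0.46 to 0.043, Iqsec2 -0.46 to 0.040 and Kalrn -0.18 to 0.049. By number, signs turned with mean of all kept probe sets of a gene for Dlgap1 -0.083. By number, signs turned with the second kept probe set of a gene for Dlgap1 -0.20, Homer2 0.079, Camk2g 0.00995, Ppp3cb -0.19 and Iqsec1 0.00468. By number, signs turned in at least 1 case with arrays removed for Dlg1 -0.00959 to 0.21, Dlgap1 -0.030 to 0.17, Homer2 -0.50 to 0.086, Camk2a -0.20 to 0.14, Camk2d -0.18 to 0.069, Camk2g -0.18 to 0.00558, Ppp3cb -0.034 to 0.088, Nrgn -0.17 to 0.11, Ppp1r9a -0.34 to 0.15 and Baiap2 -0.41 to 0.19. Without fluoxetine-titled array 1 or vehicle-titled array 1 the wider list had 2 lower, and the 2910 probe sets came to 604 without vehicle-titled array 1, 1521 without fluoxetine-titled array 3 and 1893 without fluoxetine-titled array 2. None of these sign changes concerned a call of the fit reported, apart from Iqsec1 through its second probe set. Dlgap2 alone of the 27 was called by number under each alternative, and it has only 1 probe set. The cause of each change was not tested, beyond the smaller number of arrays or the larger number of probe sets tested. Leaving out an array numbered 1 leaves 1 such array, which is assumed to vary like the others.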

Other observations

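Dlgap2 was not alone in the size of its difference by number. The other 7 genes at least 4-fold lower on the arrays numbered 1 were Gprin3, Usp48, Zc3h13, Smc6, Malat1, Washc4 and Zc3h15, named here after their values were seen. All but Malat1 (limma adjusted p = 0.0579) passed the adjusted threshold by number. Usp48, a ubiquitin protease gene, had 101.2 and 122.0 on the arrays numbered 1, against 701.7 and 677.9 on those numbered 2 and 531.2 and 711.0 on those numbered 3, and Zc3h15 had 1268 and 1223 on the arrays numbered 1, against 4351 and 4927 on those numbered 2 and 4968 and 6227 on those numbered 3. For Gprin3 the values were 89.7 and 20.8 on the arrays numbered 1, against 298.7 and 314.8 on those numbered 2 and 343.6 and 363.1 on those numbered 3. In the noncoding RNA Malat1 fluoxetine-titled array 3 stood above the rest, at 1691, while the other arrays lay between 50.2 and 348.9.

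The measured neighbours of Dlgap2 on chromosome 8, within 6 protein-coding genes on either side in the order of RefSeq's GRCm38.p6 table, had no call in its direction. By number, the log2 difference was -0.18 for Champ1, 0.34 for Coprs, 0.23 for Fbxo25, 0.25 for Tdrp, 0.35 for Cln8, 0.32 for Arhgef10, -0.39 for Kbtbd11 and 0.50 for Csmd1. Csmd1 passed, at an adjusted p of 0.0483, with the opposite sign to Dlgap2, and the other 7 did not.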
